A study of Arabidopsis thaliana with 16 samples.

Results

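The 44 genes described here encode the nuclear-encoded proteins of the 2 photosystems of *Arabidopsis thaliana* and of their light-harvesting antennae. They were chosen by locus from the gene families and not by their signals, though with earlier results of these data known. They are 44 of the 27827 genes measured. Antenna proteins account for 21 of them, with 6 *LHCA* genes for photosystem I and 15 *LHCB* genes for photosystem II. Subunits of the reaction centre complexes account for the other 23, with 12 *PSA* genes for photosystem I and 11 *PSB* genes for photosystem II, and these are called core genes here. Leaf RNA was measured on 16 arrays of the type Affymetrix AraGene-1_0-st, which carry probes along the transcripts of each gene, with 4 arrays labelled as biological replicates for each of 4 groups. The groups were wild type after 10 days of drought, the well-watered knock-down line amiNaa10, the well-watered knock-down line amiNaa15 and well-watered wild type as the control. All were of ecotype Col-0 and had grown on soil for 6 weeks with 8 h light and 16 h dark, per the labels. The methods give a somewhat longer light period. There the 10 days of drought followed the 6 weeks, and the well-watered plants grew for the same total time. In amiNaa10 and amiNaa15 an artificial microRNA against *NAA10*, the catalytic subunit of the N-terminal acetyltransferase NatA, or *NAA15*, its auxiliary subunit, is driven by the CaMV35S promoter. For its transcriptomes the paper names line 23 of amiNaa10 and line 8 of amiNaa15, while the sample titles give no line. The question was how the antenna and the core genes stood in each of the first 3 groups relative to the control.

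In the thylakoid membrane of the chloroplast, chlorophyll-binding antenna proteins pass excitation energy to the reaction centres. Photosystem II splits water at its lumenal oxygen-evolving complex, and photosystem I passes electrons on to ferredoxin at its stromal side. The reaction centre proteins themselves are encoded in the plastid, whereas the antenna proteins and most small or extrinsic subunits are made in the cytosol from nuclear transcripts and imported. Many of the nuclear genes exist as close paralogs, such as the 5 *LHCB1* genes. *LHCB1.1* lies between *LHCB1.2* and *LHCB1.3* on chromosome 1 with no annotated gene between neighbours, and *LHCB1.4* and *LHCB1.5* are neighbours on chromosome 2. Probes may not separate the transcripts of such near-identical copies, so that the values of single *LHCB1* and *LHCB2* genes are uncertain.

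Values are log2 signals as deposited, which the authors normalized so that, once sorted, the values of the 16 arrays are identical. A difference of 1 is thus a 2-fold change, and a change of all genes in one direction is no longer visible. A higher signal of one gene than of another is not read as more transcript, because each gene has its own probes. Arrays of the same group correlated across all genes at between 0.971 and 0.991, and their number limits the precision. In amiNaa10, *NAA10* lay between 4.92 and 5.28, against 6.58 to 6.88 in the control. On the arrays labelled amiNaa15, *NAA15* was low only on replicates 3 and 4 (7.97 and 7.80, against 9.10 ± 0.08 in the control, SD, n = 4), while replicates 1 and 2 had 9.68 and 9.54. On replicates 1 and 2 it was *NAA10* that was low (5.16 and 5.06), whereas replicates 3 and 4 had 6.89 and 6.86. The targeted genes thus go against the label of 2 of these 4 arrays, which are called the arrays labelled amiNaa15 throughout, and counts and calls of members that rest on them are also given without replicates 1 and 2. Calls required a limma adjusted p below 0.05 together with a change above 1.5-fold.

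In drought, transcripts of both photosystems and both antennae were lower, led by *LHCB1.4*, *LHCB2.3*, *PSBQ1*, *LHCB6*, *LHCA6* and *PSAN*. Of the 44 genes, 18 were called lower and 0 higher, that is 40.9% of them, where 7.15% of all genes were called lower and 6.27% higher. All 44 had a log2 change below 0, *LHCB7* only at -0.00, whereas 46.7% of all genes did. On 26 of the 44 the 4 drought arrays lay entirely below the 4 control arrays, which was true of 10.3% of all genes. The median log2 change of the 44 genes was -0.45, against 0.03 for all genes. Without the fold minimum, 25 of the 44 had an adjusted p below 0.05 in limma's test, where 24.7% of all genes did in either direction. As RNA came from whole leaf samples, fewer cells of a type and less RNA per cell cannot be told apart.

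**Figure D1:**
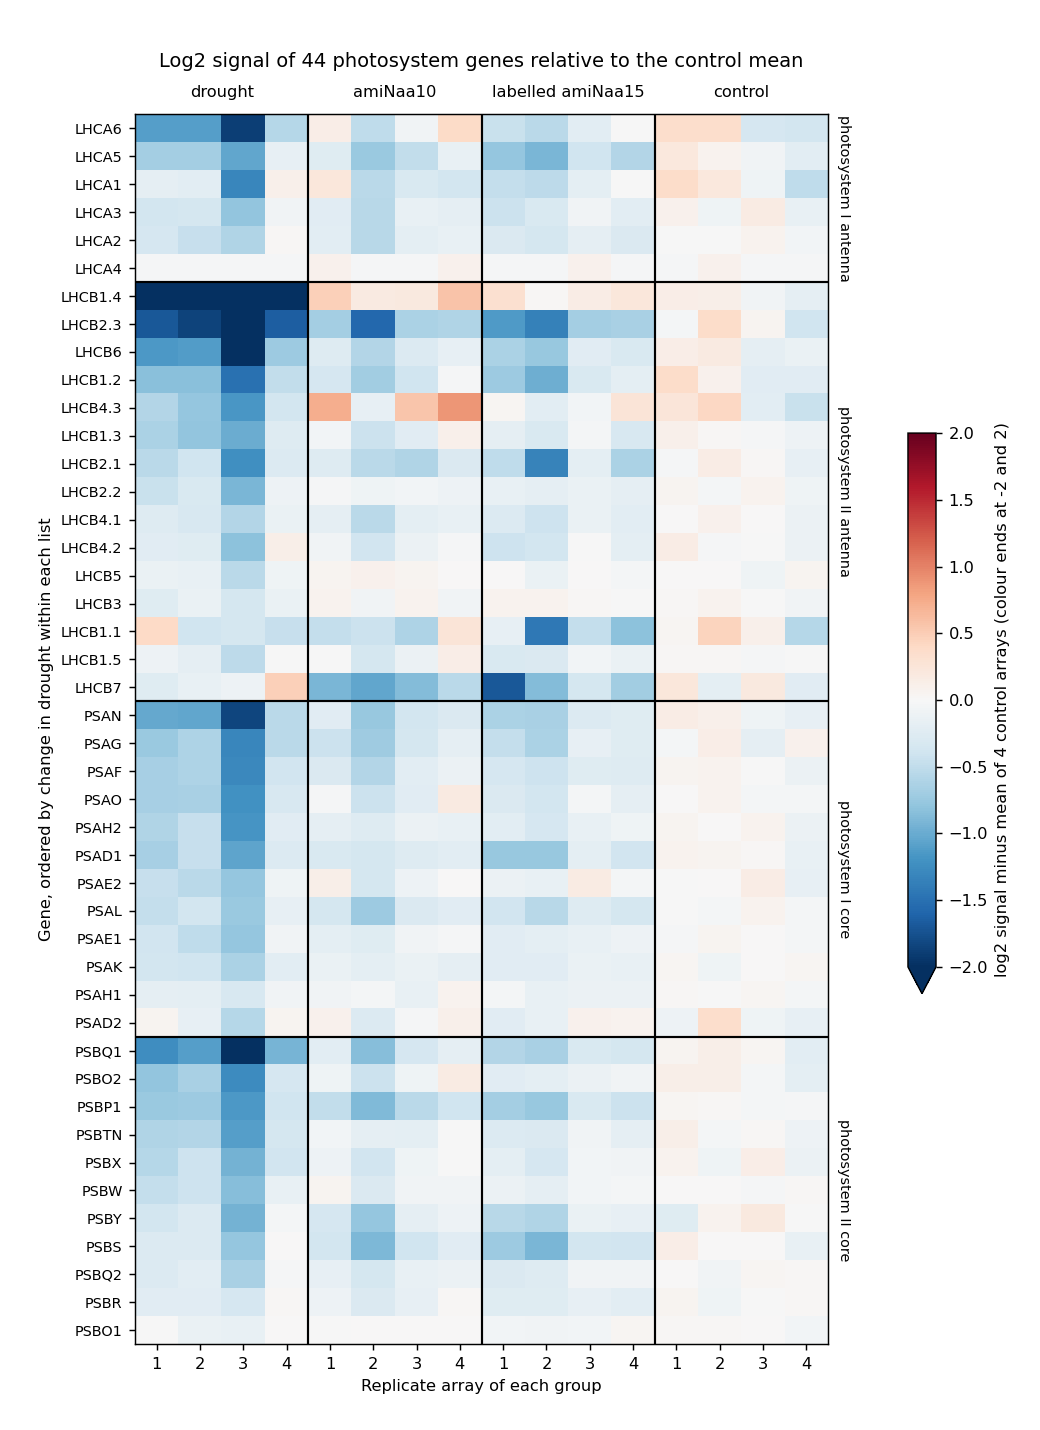
Log2 signal of each of the 44 genes (vertical) on each of the 16 arrays (horizontal, replicates 1 to 4 of drought, amiNaa10, the arrays labelled amiNaa15 and control) minus the mean of that gene on the 4 control arrays, in colour. Drought replicate 3 is the darkest column, *LHCB1.4* is beyond the end of the colour scale on all 4 drought arrays, and *LHCB7* is low in both knock-down groups but not in drought.

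The drought arrays were unequal in this. The median deviation of the 44 genes from their control means was -0.47, -0.42, -0.93 and -0.17 on drought replicates 1 to 4, and 0.05, 0.06, 0.00 and -0.12 on control replicates 1 to 4. Drought replicate 3 had the lowest signal of its group in 41 of the 44 genes (31.7% of all genes had their lowest drought signal there), and drought replicate 4 the highest in 40 (31.2% of all genes). Without replicate 3, 10 of the 18 calls were kept, 5 in the antenna and 5 in the core, and 12.7% of all genes were called in either direction, against 13.4% with it. The 8 genes no longer called were *LHCA5*, *LHCB1.3*, *LHCB4.3*, *PSAD1*, *PSAF*, *PSAH2*, *PSAO* and *PSBTN*. *LHCA5* was also not called without control replicate 1.

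Among the photosystem I antenna genes, 2 of 6 were called lower in drought, with a median log2 change of -0.40. Both were the minor members *LHCA6* and *LHCA5*, whose proteins link photosystem I to the chloroplast NADH dehydrogenase-like complex. *LHCA6* (AT1G19150) had 7.41, 7.42, 6.64 and 7.94 on the 4 drought arrays, against 8.87, 8.87, 8.18 and 8.14 on the control arrays. No drought array reached a control array, and the log2 change was -1.16 (SE 0.26, limma adjusted p = 0.00406). *LHCA5* (AT1G45474) averaged 9.65 ± 0.36 in drought and 10.29 ± 0.18 in the control (SD, n = 4 each), a change of -0.64 (SE 0.18, limma adjusted p = 0.0145), and drought replicate 4, at 10.12, was above the lowest control array, at 10.08. The 4 abundant belt proteins of photosystem I were not called. *LHCA1*, *LHCA2* and *LHCA3* had changes of -0.40, -0.34 and -0.40 (limma adjusted p = 0.321, 0.0578 and 0.0584). The signal of *LHCA1* was weak, with a control mean of 4.92 that exceeded that of 45.9% of genes, which limits this value. *LHCA4* (AT3G47470) took only 2 values over the 16 arrays, with 13.52 on all 4 drought arrays, against 13.52, 13.63, 13.52 and 13.52 in the control. Its control mean exceeded that of 99.98% of genes, and no change was detected (-0.03, limma adjusted p = 0.851).

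Among the photosystem II antenna genes, 6 of 15 were called lower in drought, with a median log2 change of -0.44 and a span that reached further than in any other of the 4 lists. *LHCB1.4* (AT2G34430), one of the genes for the major trimeric antenna, had 7.97, 8.15, 6.02 and 8.29 on the drought arrays, against 11.62, 11.61, 11.42 and 11.32 in the control. All 4 drought arrays were lower by more than 3 log2 units. The log2 change was -3.88, or 14.7-fold lower (SE 0.35, limma adjusted p = 6.06e-06), and -3.35 without replicate 3. Its neighbour *LHCB1.5* (AT2G34420), shown beside it because it encodes nearly the same protein, had 12.46, 12.37, 12.03 and 12.55 in drought, against 12.57, 12.57, 12.53 and 12.55 in the control. That is a change of -0.20, which did not pass the test (SE 0.12, limma adjusted p = 0.26). The difference between the signals of *LHCB1.4* and *LHCB1.5* averaged -4.74 ± 0.85 on the drought arrays and -1.07 ± 0.13 on the control arrays (SD, n = 4 each). The signals of these genes thus moved unequally on the same arrays. *LHCB1.5* was one of the 14 members with a control mean above 12, of which 1 was called. Of the other *LHCB1* genes, *LHCB1.2* changed by -0.91 (limma adjusted p = 0.00687) and *LHCB1.3* by -0.67 (limma adjusted p = 0.00343). *LHCB1.1* was near the lower end of the scale, at 2.92 ± 0.41 in drought and 3.12 ± 0.43 in the control, and no change could be shown there (limma adjusted p = 0.665).

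*LHCB2.3* (AT3G27690), also a gene of the trimeric antenna, had 5.44, 5.30, 4.38 and 5.50 in drought, against 7.11, 7.51, 7.20 and 6.75 in the control. The groups were more than 1 log2 unit apart, with a change of -1.99 (SE 0.27, limma adjusted p = 0.000127). The other members of its family, *LHCB2.1* and *LHCB2.2*, changed by -0.61 and -0.44 and were not called, with limma adjusted p = 0.0566 for *LHCB2.1* and 0.0213 for *LHCB2.2*, whose change was under 1.5-fold. *LHCB3*, the remaining trimer subunit, was at 12.97 ± 0.11 in drought and 13.18 ± 0.06 in the control. Of the monomeric antenna proteins that connect the trimers to the core, *LHCB6* (CP24, AT1G15820) was at 9.90, 9.94, 9.02 and 10.34 in drought, against 11.18, 11.23, 10.88 and 10.93 in the control. It changed by -1.25 (SE 0.22, limma adjusted p = 0.000663), whereas *LHCB5* (CP26) changed by -0.22 and *LHCB4.1* and *LHCB4.2* (CP29) by -0.33 and -0.30, none of which was called. *LHCB4.3* (AT2G40100), the third CP29 gene, had a weak signal of 3.76 ± 0.34 in drought and 4.49 ± 0.39 in the control. Its change of -0.72 was called (limma adjusted p = 0.0328), but not when drought replicate 1, 2 or 3 or control replicate 1 or 2 was left out (highest adjusted p 0.105). *LHCB7* (AT1G76570), a rare member of the family, had 6.31, 6.40, 6.44 and 7.03 in drought, against 6.77, 6.35, 6.74 and 6.33 in the control. These values overlapped fully, and the change of -0.00 had an SE of 0.24. *LHCB1.5* and *LHCB6* are shown array by array because of values already seen.

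**Figure D2:**
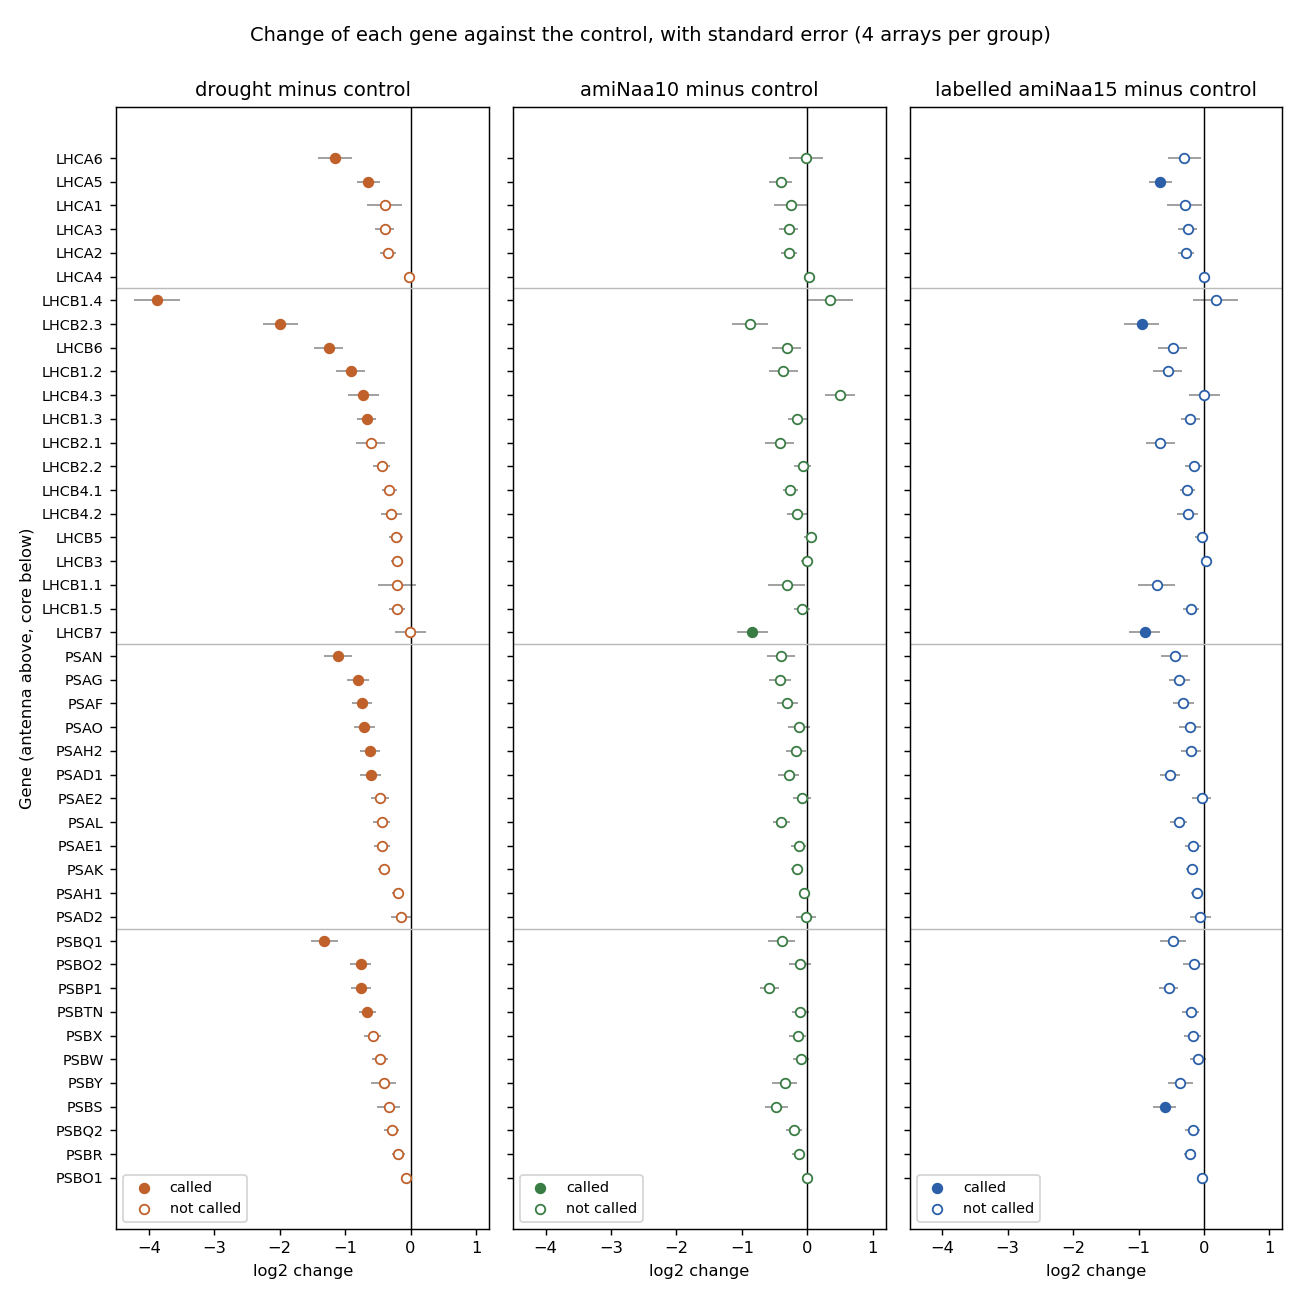
Log2 change of each gene (horizontal) in drought, amiNaa10 and on the arrays labelled amiNaa15, each minus control, with the standard error of the limma fit as bars, 4 arrays per group. Filled points were called, 18, 1 and 4 genes in the 3 panels, and in drought all points lie at or below 0 and *LHCB1.4* reaches -3.88.

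In the photosystem I core, 6 of 12 genes were called lower in drought, and the median log2 change was -0.54. *PSAN* (AT5G64040), a lumenal subunit at the side where plastocyanin binds, had 10.53, 10.51, 9.71 and 11.01 in drought, against 11.70, 11.64, 11.46 and 11.38 in the control. All drought arrays lay lower, with a change of -1.11 (SE 0.21, limma adjusted p = 0.0014). *PSAF*, which docks plastocyanin, changed by -0.74 (limma adjusted p = 0.00288). *PSAG*, a peripheral membrane subunit, changed by -0.80 (limma adjusted p = 0.00234), while the related subunit *PSAK* changed by -0.40, under the fold minimum. On the flank where phosphorylated trimers of photosystem II can attach, *PSAO* and *PSAH2* changed by -0.71 and -0.62 and were called, and *PSAL* and *PSAH1* changed by -0.44 and -0.19 and were not. Of the stromal subunits that bind ferredoxin, *PSAD1* changed by -0.61 (limma adjusted p = 0.00949). *PSAD2* (AT1G03130) had 8.50, 8.28, 7.88 and 8.50 in drought, against 8.35, 8.79, 8.36 and 8.27 in the control. The arrays of these groups overlapped, with the smallest change of the list (-0.15, SE 0.15, limma adjusted p = 0.533). *PSAE1* and *PSAE2* changed by -0.44 and -0.47, both with an adjusted p below 0.05 and a change under 1.5-fold.

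In the photosystem II core, 4 of 11 genes were called lower in drought, with a median log2 change of -0.47. The extrinsic proteins of the oxygen-evolving complex held 3 of these calls among 5 genes, one for each kind of protein. *PSBQ1* (AT4G21280) had 6.19, 6.33, 5.41 and 6.50 in drought, against 7.49, 7.54, 7.47 and 7.22 in the control. The groups did not overlap, and the change was -1.32 (SE 0.20, limma adjusted p = 0.000301). *PSBO2* changed by -0.76 (limma adjusted p = 0.00323) and *PSBP1* by -0.75 (limma adjusted p = 0.00188). *PSBQ2* changed by -0.29 (limma adjusted p = 0.0891), and *PSBO1* (AT5G66570), which stabilizes the manganese cluster like *PSBO2*, had 12.96, 12.83, 12.82 and 12.97 in drought, against 12.99, 12.99, 12.97 and 12.91 in the control. Here 2 of the 4 drought arrays lay within the control range, and the change was -0.07 (SE 0.08, limma adjusted p = 0.564). Between *PSBQ1* and *PSBQ2* the difference in signal averaged -6.05 ± 0.23 in drought and -5.02 ± 0.18 in the control, and between *PSBO1* and *PSBO2* it averaged 2.68 ± 0.33 in drought and 1.99 ± 0.11 in the control (SD, n = 4 each). The control means of *PSBQ2* and *PSBO1* were above 12, where few members were called. Of the subunits of low molecular mass, *PSBTN* was called at -0.66, and *PSBX*, *PSBW*, *PSBY* and *PSBR* changed by -0.58, -0.47, -0.41 and -0.19 without a call. For *PSBX* and *PSBW* the change was under 1.5-fold, with limma adjusted p up to 0.0142 and 0.0319 when each array was left out. *PSBX* was called in 4 of these 16 fits. *PSBS*, the protein that switches the antenna of photosystem II to heat dissipation, changed by -0.33 (limma adjusted p = 0.197).

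Antenna and core genes stood close together in drought. Of the antenna genes 8 of 21 were called lower, with a median log2 change of -0.40, and of the core genes 10 of 23, with a median of -0.47. The difference of these medians, antenna minus core, was 0.07, and it was 0.10 without drought replicate 3. Computed on each array from the deviations from the control means, the antenna minus core difference was 0.11, 0.06, 0.02 and 0.08 in drought, and 0.06, 0.06, -0.03 and -0.10 in the control. These ranges overlapped, and differences between arrays of the control alone spanned more than the shift. The changes of single genes ranged between -3.88 and -0.00 in the antenna and between -1.32 and -0.07 in the core. Changes beyond -1 were found for 4 antenna genes (*LHCA6*, *LHCB1.4*, *LHCB2.3* and *LHCB6*) and 2 core genes (*PSAN* and *PSBQ1*). Leaving out *PSBS*, which belongs to neither in function, gave a core median of -0.52.

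**Figure D3:**
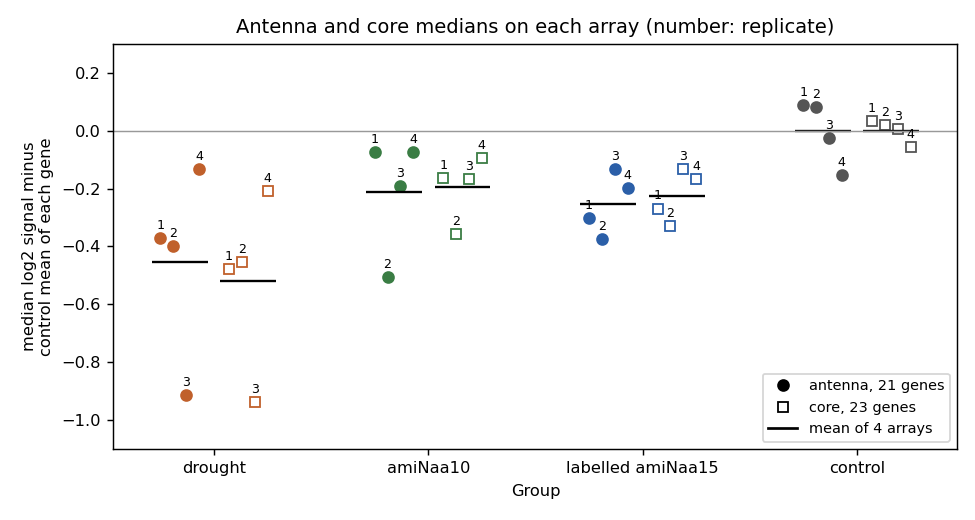
Median deviation of the antenna genes (filled circles, 21 genes) and of the core genes (open squares, 23 genes) from their control means in log2 units (vertical) on each array of drought, amiNaa10, the arrays labelled amiNaa15 and control (horizontal), with the replicate number at each point and bars for the mean of 4 arrays. The antenna and core medians of an array lie close together, with drought replicate 3 at -0.91 and -0.94.

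The members were also grouped by their mean signal in the control. Of the 3 members below 5, 1 was called lower in drought, with a median change of -0.40. Between 5 and 9 it was 3 of 6 with a median of -0.88, and between 9 and 11 it was 5 of 11 with a median of -0.58. Between 11 and 12, 8 of 10 were called with a median of -0.71, while above 12 only *PSBP1* of 14 was called and the median was -0.26. Among all genes, 2.15%, 10.9%, 16.5%, 17.3% and 9.46% were called lower in these 5 classes, in the same order. In the antenna, *LHCA4*, *LHCB3* and *LHCB5* took 2, 7 and 8 distinct values over the 16 arrays, against 16 for *LHCB1.4*. The part of signal strength in which genes were called was not tested.

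**Figure D4:**
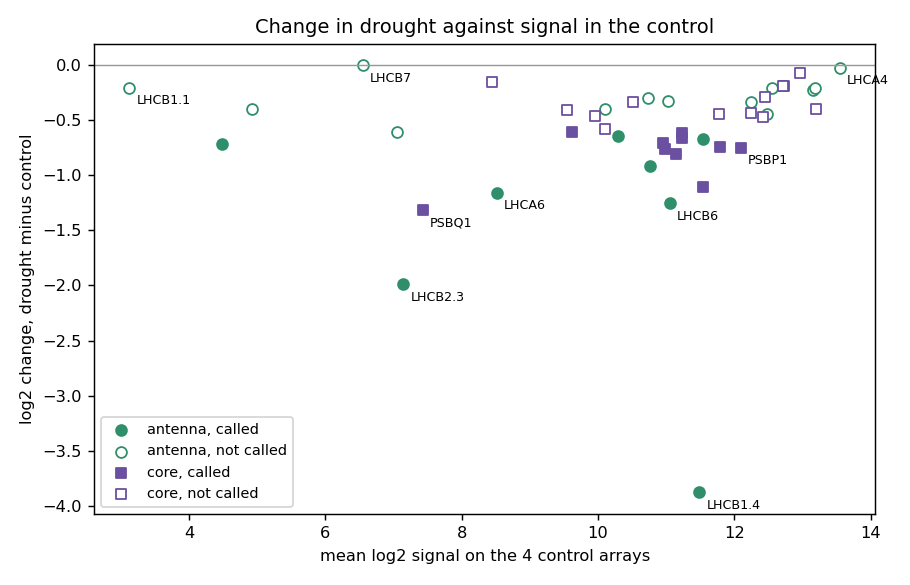
Log2 change in drought minus control (vertical) against the mean log2 signal on the 4 control arrays (horizontal) for antenna genes (circles) and core genes (squares), filled where called. Above 12 only *PSBP1* is filled, and the 10 genes between 11 and 12 include 8 filled points.

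In amiNaa10, 1 of the 44 genes was called lower and 0 higher, that is 2.27%, where 2.92% of all genes were called lower and 2.45% higher. *LHCB7* had 5.63, 5.50, 5.69 and 6.00 in amiNaa10, against 6.77, 6.35, 6.74 and 6.33 in the control. All 4 amiNaa10 arrays lay lower, and the change was -0.84 (SE 0.24, limma adjusted p = 0.0404). The call was lost when amiNaa10 replicate 1, 2 or 3, replicate 2 of the arrays labelled amiNaa15, or control replicate 1 or 3 was left out, with adjusted p up to 0.125, and a second gene, *LHCB2.3* or *PSBP1*, was called without drought replicate 3, amiNaa10 replicate 4 or control replicate 4. *LHCB2.3* had a change of -0.87, which missed the threshold (SE 0.27, limma adjusted p = 0.0572), and amiNaa10 replicate 2 was the lowest at 5.57, with 6.46, 6.50 and 6.54 on the others, against 6.75 to 7.51 in the control. *PSBP1* changed by -0.58 (limma adjusted p = 0.0295), just under 1.5-fold. *LHCB1.4*, so low in drought, had 11.96, 11.67, 11.68 and 12.06 in amiNaa10, against 11.62, 11.61, 11.42 and 11.32 in the control. All amiNaa10 arrays were above all control arrays without passing the test (0.35, SE 0.35, limma adjusted p = 0.588). This SE pools the spread of all 4 groups, including the drought arrays, which lay between 6.02 and 8.29. With each array left out, the limma adjusted p was between 0.0786 and 0.707. *LHCB4.3* had a change of 0.50 (limma adjusted p = 0.199).

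Small shifts in one direction were more common than calls in amiNaa10. A log2 change below 0 was found for 39 of the 44 genes (88.6%), against 47.2% of all genes, and for 14 (31.8%) the amiNaa10 arrays lay entirely below the control, against 7.63% of all genes. The median change was -0.25 in the antenna, -0.16 in the core and 0.02 over all genes. The antenna minus core difference of -0.09 became 0.016 without control replicate 1 and 0.0087 without control replicate 2. On the single arrays the median deviation of the 44 genes was -0.15, -0.43, -0.17 and -0.09 in amiNaa10, against 0.05, 0.06, 0.00 and -0.12 in the control. The highest amiNaa10 array thus lay above the lowest control array. Replicate 2 of amiNaa10 held the lowest amiNaa10 signal of 35 of the 44 genes (29.3% of all genes).

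On the arrays labelled amiNaa15, 4 of the 44 genes were called lower and 0 higher, that is 9.09%, where 2.58% of all genes were called lower and 2.09% higher. They were 3 antenna genes and *PSBS*, which is shown because it was the remaining call. *LHCB2.3* had 6.01, 5.79, 6.47 and 6.49 on the arrays labelled amiNaa15, against 7.11, 7.51, 7.20 and 6.75 in the control. These groups did not overlap, and the change was -0.95 (SE 0.27, limma adjusted p = 0.0421). *LHCB7* had 4.85, 5.69, 6.19 and 5.85 on the arrays labelled amiNaa15, against 6.77, 6.35, 6.74 and 6.33 in the control, a change of -0.90 (SE 0.24, limma adjusted p = 0.0305). Replicate 1 was the lowest, and all 4 lay below the control. *LHCA5* had 9.51, 9.37, 9.89 and 9.71 on the arrays labelled amiNaa15, against 10.50, 10.36, 10.22 and 10.08 in the control, a change of -0.67 (SE 0.18, limma adjusted p = 0.0318). *PSBS* had 9.79, 9.60, 10.14 and 10.13 on the arrays labelled amiNaa15, against 10.64, 10.53, 10.52 and 10.37 in the control, a change of -0.60 (SE 0.18, limma adjusted p = 0.0495). In *LHCB2.3*, *LHCB7*, *LHCA5* and *PSBS* alike, the control arrays were all higher, and replicates 1 and 2 were both below replicates 3 and 4. These 4 genes were picked by their calls. In the 16 fits with 1 array left out, the call was lost 12 times for *PSBS*, 9 for *LHCB2.3*, 6 for *LHCA5* and 4 for *LHCB7*. Of all 44 genes, 30 had their lowest signal of this label on replicate 2 (22.8% of all genes) and 28 their highest on replicate 3 (27.6% of all genes). Replicates 1 and 2 had low *NAA10* and replicates 3 and 4 low *NAA15*, and the part of this in the order was not tested.

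Without replicates 1 and 2 none of the 44 genes was called on the arrays labelled amiNaa15, where 0.388% of all genes were. The changes on replicates 3 and 4 were then -0.66 for *LHCB2.3*, -0.52 for *LHCB7*, -0.49 for *LHCA5* and -0.38 for *PSBS*, with limma adjusted p = 0.415, 0.324, 0.363 and 0.466. Without replicates 3 and 4, 7 genes were called, the 4 named and *LHCB2.1*, *PSAD1* and *PSBP1*, a setting added after the data were seen. The share of all genes called was also higher there, at 7.36% against 4.67% with all 4 arrays. With the replicate block *LHCA5* and *LHCB7* were called and *LHCB2.3* and *PSBS* were not, and with unmoderated variances none of the 4 was. Single arrays weighed as much, for the members and for all genes. The count was 0 without replicate 1 or 2 of that label (2.76% and 2.38% of all genes) or control replicate 1 or 3 (2.85% and 3.67%). It was 1 without replicate 4 of that label (3.64%) or control replicate 2 (4.36%). It was 2 without drought replicate 2 (4.43%) or amiNaa10 replicate 1 or 3 (4.33% and 4.53%), and 7 without replicate 3 of that label (6.99%). Over all 4 arrays, 40 of the 44 genes had a change below 0 (90.9%), against 48.3% of all genes, and 20 (45.5%) lay entirely below the control, against 7.07% of all genes. On replicates 3 and 4 alone it was 38 genes with a change below 0 (86.4%), against 48% of all genes, and 21 that lay entirely below the control (47.7%), against 10.9% of all genes. The median change was -0.26 in the antenna and -0.21 in the core, and -0.15 and -0.13 without replicates 1 and 2. The antenna minus core difference was -0.05, and -0.02 without these replicates.

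**Figure D5:**
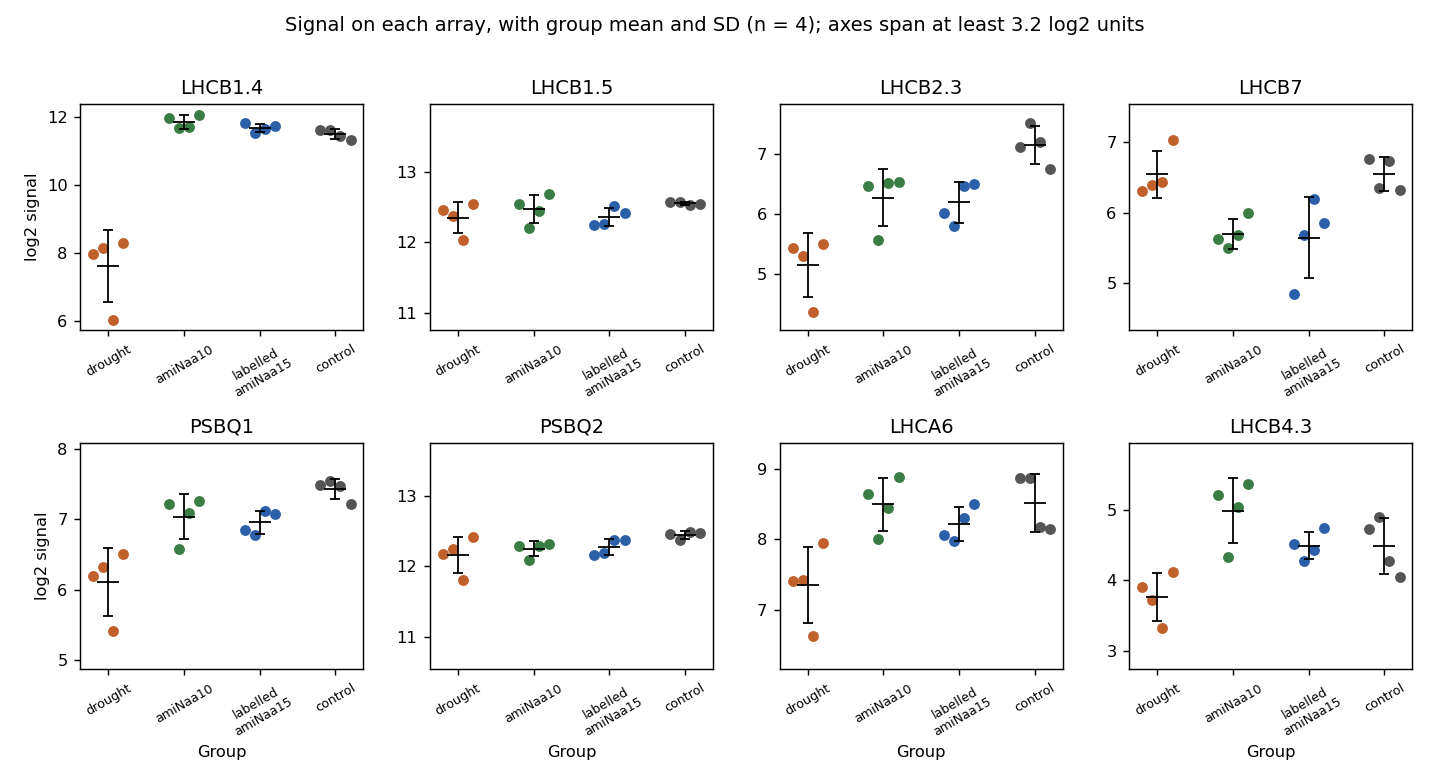
Log2 signal (vertical) of 8 genes on each array of drought, amiNaa10, the arrays labelled amiNaa15 and control (horizontal), with the group mean and SD (n = 4). *LHCB1.4* is low in drought only, *LHCB2.3* is below the control in all 3 groups, *LHCB7* is below the control in both knock-down groups, and *LHCB1.5* and *PSBQ2* move little.

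The comparisons with the control share the same 4 control arrays. The knock-down groups were also set against drought directly, and these comparisons share the 4 drought arrays. Set against drought, amiNaa10 had 9 of the 44 genes called, where 17.3% of all genes were, with *LHCB7* lower and 8 genes higher (8.17% and 9.11% of all genes). *LHCB7* changed by -0.84 in amiNaa10 against drought, and *LHCB1.4* by 4.23 (SE 0.35). The other 7 genes were *LHCA6*, *LHCB2.3*, *LHCB4.3*, *LHCB6*, *PSAN*, *PSBO2* and *PSBQ1*. For the arrays labelled amiNaa15 against drought these genes were called too, 9 of 44, where 13.7% of all genes were called, 6.57% lower and 7.14% higher. Without replicates 1 and 2 of that label, 4 genes were called, where 9.57% of all genes were, namely *LHCB1.4*, *LHCB2.3*, *LHCB6* and *PSBQ1*. *LHCB1.4* was higher than in drought by 4.06 with and without replicates 1 and 2, whereas *LHCB7* had a change of -0.90 over all 4 arrays and -0.52 without those replicates, which did not pass the test (limma adjusted p = 0.137). There were also 4 genes called without drought replicate 3, where 13% of all genes were, and 5 without replicate 4 of that label, where 12.8% were. Between amiNaa10 and the arrays labelled amiNaa15 limma called 0 of the 44 and 0 of all genes, although 360 genes (1.29%) passed an unadjusted p of 0.05 and 1.5-fold.

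Among genes that work beside the photosystems, 2 of 4 lists held most of the lower calls in drought, where 7.15% of all genes were called lower. Of 14 nuclear genes of electron carriers, ATP synthase and cyclic electron flow, 9 were called lower and 0 higher (64.3%, median -0.62), led by *ATPD*, the delta subunit of the chloroplast ATP synthase, at -1.11 (SE 0.17, limma adjusted p = 0.00031). Of 17 factors that insert antenna proteins or assemble the photosystems, 8 were called lower and 0 higher (47.1%, median -0.53), led by *HCF136*, a photosystem II assembly factor, at -1.21 (SE 0.21, limma adjusted p = 0.000661). Single members of these 2 lists had positive changes that were not called, such as *PGRL1B* at 0.25 (limma adjusted p = 0.0775) and *PAM68* at 0.25 (limma adjusted p = 0.397). None of the 4 kinases and phosphatases that act on antenna and core proteins was called. Of the 15 plastid-encoded genes on the array, 1 was called lower and 0 higher (6.67%), close to the share of all genes, with a median change of -0.13. Neither knock-down group had a called gene in these 4 lists, against 2.92% of all genes called lower in amiNaa10, and 2.58% for the label amiNaa15.

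*GLK1* and *GLK2* encode transcription factors that activate many photosystem and antenna genes. *GLK1* had 9.46, 9.02, 9.71 and 9.33 in amiNaa10, while the arrays labelled amiNaa15 had 8.65, 9.19, 10.30 and 9.69, against 10.66, 10.46, 10.86 and 10.61 in the control. Every array of both knock-down groups was below the control. The log2 change was -1.27 in amiNaa10 (SE 0.26, limma adjusted p = 0.0122). For the arrays labelled amiNaa15 it was -1.19 (SE 0.26, limma adjusted p = 0.0133), and -0.65 once replicates 1 and 2 were left out (limma adjusted p = 0.22), while without replicate 2 alone the adjusted p was 0.0526. In drought *GLK1* had 10.70, 10.67, 10.14 and 10.67, a change of -0.10 (limma adjusted p = 0.83). *GLK2* changed by 0.32 in drought, -0.36 in amiNaa10 and, for the arrays labelled amiNaa15, -0.22, and was called in no group.

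Other leaf transcripts moved with drought as well. Of 3 mesophyll markers *CA1*, a carbonic anhydrase, was called lower at -1.67, while *RBCS1A* and *RCA*, at -0.14 and -0.01, were not. Among markers of other cell types, 0 of 4 for guard cells and 0 of 4 for roots were called, *PDF1* of 2 epidermis markers was 2.82-fold lower and *SWEET11* of 2 phloem markers 1.61-fold higher. The part of such cell types in the changes of the photosystem genes was not tested. The root markers lay between 1.59 and 4.72 on the 16 arrays, and *RBCS1A* between 13.11 and 13.39. Of 9 circadian clock genes, whose rhythm antenna transcripts share, *LHY*, *CCA1* and *ELF4* were called higher in drought (1.28, 1.00 and 0.68) and *PRR5* lower (-0.65). The signal of *ELF4* was weak, between 2.22 and 3.57 on the 16 arrays. The drought call of *PRR5* was lost in 2 of the 16 fits with 1 array left out (limma adjusted p up to 0.0542). On the arrays labelled amiNaa15 *TOC1* and *PRR5* were called higher (0.59 and 0.65), though not without replicates 1 and 2 (0.35 and 0.57), and in amiNaa10 0 of the 9 were called. The hour of harvest is not given in the sources used here, and the part of the clock or of harvest time in the changes of the photosystem genes was not tested.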

How the data were processed

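Leaf RNA of 16 samples, 4 in each of 4 groups, was measured on Affymetrix AraGene-1_0-st arrays. The values that the authors deposited are log2 signals, 1 per gene and array. They come from RMA with quantile normalization, summarized through a custom TAIR-based annotation (version 16 per the methods). Its TAIR release is not named in the sources used here, so coordinates were left out. RefSeq assembly TAIR10.1 gave a symbol for all 44 loci and was used for neighbouring genes, while the names *NAA10* and *NAA15* come from the paper. The sorted values of all 16 arrays were checked to be identical.

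Each of the 27827 genes was modelled with 4 group means on all 16 arrays, which leaves 12 residual degrees of freedom. Tests were run in limma 3.58.1 (R 4.3.3) with Benjamini-Hochberg adjustment over all genes within a comparison. A call needed an adjusted p below 0.05 and a change above 1.5-fold, and 2 genes constant within every group were not called. P-values rest on the spread between arrays of the same group, pooled over all 4 groups and moderated across genes by limma. Groups outside a comparison thus also weigh on its p-values. The methods used an analysis of variance at the same false discovery rate. Medians over lists are descriptions without a test. The procedure was tested on simulated data for drought against control, in which 200 of 27827 genes were altered. It recovered 82 of the 100 altered by 1 log2 unit, 98 of the 100 altered by 2, and 11 unaltered genes.

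Values on each array are given for the 3 largest called rises and falls of a comparison with control, for the members of each list with the largest and the smallest change in drought, for both GLK genes and the targeted genes, and for those marked as shown because of values already seen. Other listed genes are the most changed called gene of a list. The members and lists were chosen with earlier results of these data known. Alternatives were dropping the fold minimum, testing with treat, unmoderated variances, a fit to just the 2 groups in question, a replicate block, a filter that drops the 25% of genes lowest in mean signal, cyclic loess, array weights, each array left out, and the arrays labelled amiNaa15 without replicates 1 and 2. Python 3.11.15 with pandas 2.3.3 and matplotlib 3.10.9 served for figures.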

Additional observations from a re-analysis of the deposited data

Results flagged for a closer look

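In 12 of 176 sets of 4 arrays (44 genes in 4 groups), 1 array lay far from the other 3 by Dixon's ratio at its 95% limit. Chance alone marks about 1 in 20 such sets. In drought these were *LHCB1.4* on replicate 3 at 6.02 (the others 7.97 to 8.29), *LHCB5* on replicate 3 at 12.6 (13.01 to 13.07) and *LHCB1.1* on replicate 1 at 3.52 (2.66 to 2.77). In amiNaa10 they were *LHCB2.3* on replicate 2 at 5.57 (6.46 to 6.54), *LHCB4.1* on replicate 2 at 10.50 (10.84 to 10.89), *PSBQ2* on replicate 2 at 12.09 (12.29 to 12.32) and *PSBO1* on replicate 1 at 12.96 (12.97 on each of the others). On the arrays labelled amiNaa15 they were *LHCA4* on replicate 3 at 13.63 (13.52 on each of the others) and *PSBO1* on replicate 4 at 13.01 (12.89 to 12.91). In the control they were *LHCA4* on replicate 2 at 13.63 (13.52 on each of the others), *PSAD1* on replicate 4 at 9.46 (9.65 to 9.68) and *PSAD2* on replicate 2 at 8.79 (8.27 to 8.36). *LHCA4* and *PSBO1* took only 2 and 8 distinct values over the 16 arrays, so that single steps of the scale stand out there. Without drought replicate 3 the log2 change of *LHCB1.4* was -3.35.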

How the results depend on the processing

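The number of the 44 genes called in drought ranged between 10 and 21 when each array was left out in turn, and was 10 without drought replicate 3. It was 2 with limma's treat, which tests for a change beyond 1.5-fold and called 1.45% of all genes. Under the remaining settings it was within 1.5 times 18. Without moderation *LHCB4.3* was not called, and with array weights *PSAH2* was not. In amiNaa10, where 1 gene was called, the count was 0 with treat (0.018% of all genes) and with unmoderated variances (3.39%). It was 2 without a fold minimum (8.04%) and without the 25% of genes with the lowest mean (5.77%). It was also 2 with cyclic loess (5.24%) and with array weights (5.94%), and 0 to 2 with each array left out. On the arrays labelled amiNaa15, where 4 were called, it was 0 with treat (0.0827% of all genes) and with unmoderated variances (3.54%). It was 0 without replicates 1 and 2 (0.388%) and 7 without replicates 3 and 4 (7.36%, chosen after seeing the data). With each array left out it was 0 to 7. In amiNaa10 against drought it was 17 without a fold minimum (28.4% of all genes), 1 with treat (4.12%) and 7 to 13 with each array left out. On the arrays labelled amiNaa15 against drought it was 16 without a fold minimum (22.7% of all genes) and 1 with treat (2.52%). It was 4 without replicates 1 and 2 (9.57%) and 2 without replicates 3 and 4 (14.3%). With each array left out it was 4 to 11, the lowest without drought replicate 3. With each array left out, the antenna median ranged between -0.55 and -0.26 in drought, -0.29 and -0.13 in amiNaa10, and, for the arrays labelled amiNaa15, -0.31 and -0.20. The core median ranged between -0.59 and -0.36, -0.20 and -0.14, and -0.23 and -0.17, and the antenna minus core difference between 0.03 and 0.12, -0.11 and 0.016 (0.0087 without control replicate 2), and -0.09 and -0.01, in the same order. No called gene among the 44 changed sign under these settings. The cause of these differences was not tested.

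The replicate numbers did not pair the arrays. Arrays of different groups with the same number correlated in their deviations from the group means at between -0.20 and 0.32, and 12 of 48 correlated best with their own number. With the replicate block 18 genes were called in drought, 1 in amiNaa10 and, for the arrays labelled amiNaa15, 2 (*LHCA5* and *LHCB7*). The precision is limited by 4 arrays per group.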
